A study of Mus musculus with 2 samples.

Results

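The genes described here encode the nuclear-encoded proteins of the mitochondrial respiratory chain and ATP synthase, measured in mouse marrow cells cultured beneath ID8 tumour cells. A gene was taken where a probe set carried its symbol alone and the symbol began with Nduf, Sdh, Uqcr, Atp5, or Cox followed by a digit. This rule found 102 genes with 203 probe sets, out of 18193 genes and 34945 probe sets with 1 symbol on the array. By complex, 44 genes were named for complex I, 8 for complex II, 8 for complex III, 25 for complex IV and 17 for complex V. The name prefix also takes in proteins that build the complexes and are no part of them, so that 82 of the 102 genes encode subunits or their isoforms and 20 encode assembly factors.

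The sample was RNA of C57BL/6 femoral bone marrow cells, grown in medium with 5% serum and kept for 4 days beneath ID8 cells, a mouse ovarian surface epithelial tumour line, in transwell plates. The labels call the product ID8-induced myeloid-derived suppressor cells (MDSC) and describe it as CD11b+Gr1+, while naming tumour supernatant in one place and tumour cells in an upper chamber in another. The control was C57BL/6 bone marrow cells labelled CD11b+Gr1+ as well, with no length of culture given, and each group had 1 array. From one probe set to the next, the signal rose in 49.9% of steps in the ID8-induced column and in 6.89% (3103 steps) in the control column. The control values formed 2 interleaved descending sequences, 22626 values at or above the column's last value and 22411 below it, with 0 rises within each. The ID8-induced column, divided in the same way, had 10622 and 11804 rises. The control signals are therefore not tied to probe sets, no fold change was taken, and all signals below are of the ID8-induced MDSC array, with no replicate, no error and no test. Myeloid identity was checked on 10 markers, of which 7 had a probe set of their own and all 7 had more signal than 90% of the probe sets, with S100a9 (a calprotectin subunit) at 24857 and Itgam (CD11b) at 2375. The Gr1 antigen genes Ly6g and Ly6c1, and Ly6c2, were not analysed here. RNA of the whole sample was measured, so that fewer cells of a type and less RNA per cell cannot be told apart.

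The respiratory chain passes electrons from NADH (at complex I) and succinate (at complex II) through ubiquinone to complex III, cytochrome c and complex IV, where oxygen is reduced. Complexes I, III and IV pump protons across the inner mitochondrial membrane, and complex V, the ATP synthase, uses the gradient to make ATP. Each complex except II also contains subunits encoded by mitochondrial DNA, which are not analysed here. Mature neutrophils are known for a sparse mitochondrial network and for relying largely on glycolysis, while immature myeloid cells use respiration more.

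Most respiratory chain genes lay in the upper part of the array. The values are MAS5 signal intensities on a linear scale, and each gene takes the value of its brightest probe set. Percentiles count how many of the 45037 probe sets read lower. The 40th percentile, a signal of 68.77, served as a floor because no detection calls were available. Of the 102 genes, 93 (91.2%) lay at or above the floor, where 71.3% of all genes did. At or above an upper mark set at the 90th percentile, a signal of 619.81, there were 56 of the 102 (54.9%), and 14.8% of all genes. With the floor moved to the 20th and the 60th percentile the counts were 101 and 88 of 102, where 87.5% and 51.6% of all genes passed. At or above the 99th percentile there was 1 of the 102, Ndufv3, and 1.39% of all genes. The median signal was 697.6 over the 102 genes and 125.7 over all genes, and the median percentile was 91.0 and 61.4. The median percentile was 92.3 for the 82 subunits, which ranged from 13.2 to 99.3, and 77.9 for the 20 assembly factors, which ranged from 24.1 to 96.1, so that the ranges overlapped. The floor is a position on the array, so that a signal above it does not by itself show that a gene was expressed. Signals of different probe sets also depend on how well each hybridises and on transcript length, so the levels below place each gene on the array and do not rank transcripts.

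**Figure D1:**
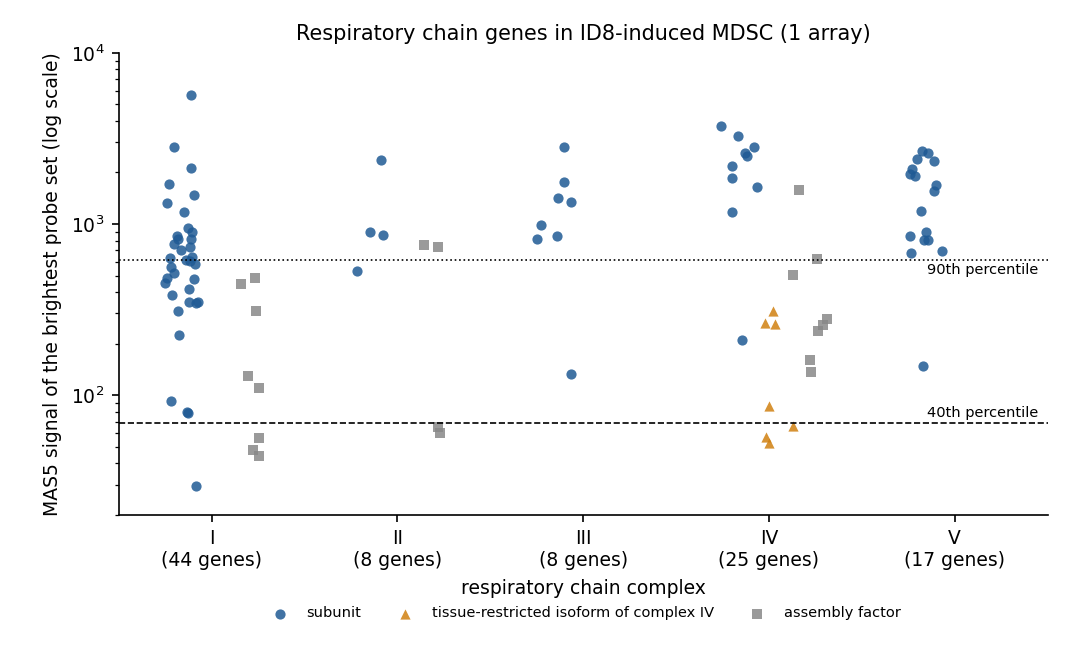
Signal of the brightest probe set (MAS5 units, log axis) for each of the 102 genes in the ID8-induced MDSC array, by complex; each point is a gene, circles are subunits, triangles tissue-restricted isoforms of complex IV and squares assembly factors, and the horizontal lines are the array's 40th and 90th percentiles. Of the 17 complex V genes 16 stand above the upper line, and 9 of the 102 genes lie below the lower one.

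**Figure D2:**
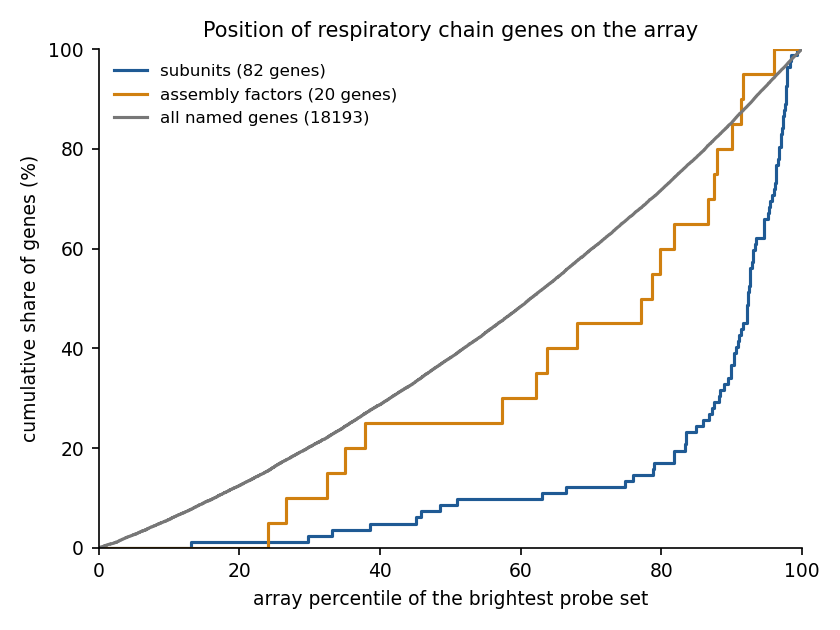
Cumulative share of genes (vertical axis, %) against the array percentile of the brightest probe set (horizontal axis) for 82 subunit genes, 20 assembly factor genes and all 18193 named genes of the ID8-induced MDSC array. Of the 82 subunits 52 stand at or above the 90th percentile, and their median is at 92.3, against 77.9 for assembly factors and 61.4 for all genes.

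Complex I, NADH dehydrogenase, had 40 of its 44 genes at or above the floor, where 71.3% of all genes did. The upper mark was passed by 17 of the 44 (38.6%) and by 14.8% of all genes. The median percentile of the complex was 87.9, and 89.9 for the 36 subunits alone. The catalytic core of the matrix arm takes electrons from NADH along a chain of iron-sulfur clusters to ubiquinone. Its 6 genes with probe sets of their own ran from 347.63 to 813.31 on their brightest probe sets. Ndufv2, an iron-sulfur subunit at the entry site, read 813.31 on its brightest probe set and 409.71 on its dimmest. Ndufv1, which binds NADH, read 635.68 and 292.23 in the same way. Ndufs7 and Ndufs8, the iron-sulfur subunits closest to ubiquinone, read 619.2 and 559.58, with dimmest values of 398.45 and 273.8. These core genes had no probe set below the floor. Ndufs3 read 516.11 and Ndufs1, the largest core subunit, 347.63, each on its only probe set. Ndufs6 had only a probe set that it shares with another symbol.

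The 30 accessory subunits of complex I, which surround and stabilise the core, ran from 29.64 to 5654.95. This range covers more genes than that of the 6 core genes, so their widths cannot be compared directly. Ndufv3, an accessory subunit beside the NADH-binding site, gave the highest signal of all 102 genes, 5654.95 at percentile 99.3, on its only probe set. Ndufa6, which belongs to the LYR family of small proteins that bind acyl carrier protein, read 2824.93. Ndufa7 had 5 probe sets between 770.64 and 2125.44, all above the upper mark. Ndufb9, another LYR protein, read 1713.72, with 175.83 on its dimmest probe set. These 4 were the highest subunits of the complex.

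Other accessory genes above the upper mark included Ndufb11, whose 3 probe sets read between 1228.7 and 1485.3. Ndufa3 read 949.47 and 934.65 on 2 probe sets and 117.98 on another. Ndufa13, also called GRIM-19, read 846.59. Ndufs4, whose loss in mice causes a fatal encephalopathy, had 4 probe sets that disagreed, at 1177.81, 290.27, 36.17 and 34.86. Ndufab1, the mitochondrial acyl carrier protein and below the mark, read 474.76 and 429.42 on 2 probe sets and between 21.56 and 38.66 on the other 3. Both genes thus had probe sets on either side of the floor.

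The remaining accessory genes lay around the upper mark. Above it were Ndufa2 at 1326.3, Ndufa1 (an X-linked subunit of the membrane arm) at 892.83, Ndufb7 at 815.69, Ndufc2 at 761.86, Ndufa12 at 734.73 and Ndufb3 at 638.85. Ndufb8, a membrane arm subunit often used as a protein marker of the complex, read 703.68 on 1 probe set and 42.08 on the other, a ratio of 16.7. Below the mark were Ndufa8 at 611.03, Ndufb6 at 586.72, Ndufb5 at 483.66, Ndufa10 at 453.26 and Ndufc1 at 415.36. Ndufa9, which lies at the ubiquinone site, read 384.55, Ndufb10 350.54, Ndufs5 311.49 and Ndufb2 224.13. All of these brightest values were above the floor.

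At the low end stood Ndufb4 at 29.64, the only complex I subunit below the floor. That probe set is not its only measurement, since 2 further probe sets shared with the near copies Ndufb4b and Ndufb4c read 299.24 and 250.18. Ndufb1 read 78.47 on its only probe set. Ndufa5 read 79.92 and 72.99. Both lay just above the floor. Ndufa4, named for complex I and since assigned to complex IV, read 349.48, and Ndufa4l2, its paralogue known as a hypoxia-inducible gene, read 92.07 at percentile 50.9. By their names, both genes are counted here among the accessory subunits of complex I and not with complex IV.

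Of the 8 complex I assembly factors, 5 (62.5%) lay at or above the floor and 0 above the upper mark, where 71.3% and 14.8% of all genes did. Their median percentile was 59.8, near the 61.4 of all genes. Ndufaf7, a methyltransferase that modifies a core subunit, read 481.31, Ndufaf8 read 444.43 and Ndufaf3 309.43. Ndufaf2 and Ndufaf1 read 128.98 and 110.62. The 3 genes below the floor were Ndufaf5, an arginine hydroxylase, at 56.16, Ndufaf6 at 47.61 and Ndufaf4 at 44.26. The second probe set of Ndufaf4 read 24.76.

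All 4 subunits of complex II, succinate dehydrogenase, passed the floor, and 3 of the 4 passed the upper mark. Among all genes, 71.3% and 14.8% did. The complex is the only one shared between the respiratory chain and the tricarboxylic acid cycle. Sdha, the flavoprotein that oxidises succinate, read 902.58 and 675.76 on 2 probe sets and 115.79 and 62.83 on the other 2. Sdhb, the iron-sulfur subunit, read 861.34 on a single probe set. Sdhc, a membrane anchor, read 528.33 and 252.49. The other anchor, Sdhd, read 2364.08 on 1 probe set and 135.16 on the other, a ratio of 17.5 within 1 gene. Sdhd and Sdha were thus among the 10 genes with the widest disagreement between probe sets. Of the 4 assembly factors, Sdhaf2, which helps attach the flavin to Sdha, read 752.02 and Sdhaf1, which helps load iron-sulfur clusters into Sdhb, 733.6. Sdhaf3 and Sdhaf4 lay below the floor at 65.02 and 60.27. With them, complex II had 6 of 8 genes at or above the floor, a share of 75% that is near that of all genes.

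Complex III, the cytochrome bc1 complex, had 8 of 8 genes above the floor and 7 above the upper mark. Over all genes these shares were 71.3% and 14.8%. The median signal of complex III was 1163. Uqcrh, the hinge protein that contacts cytochrome c1, read 2813.36 and 2582.06 on its 2 probe sets. Uqcrfs1, the Rieske iron-sulfur protein that passes electrons on, read 1747.1. The structural core proteins Uqcrc2 and Uqcrc1 read 1342.11 and 850.46, and the second probe set of Uqcrc2 read 1267.15. Agreement was close for Uqcrh and Uqcrc2, with ratios of 1.09 and 1.06. Among the small subunits, Uqcrb read 1411.16 (370.37 on its other probe set) and Uqcr10 984.43. Uqcrq had 4 probe sets at 819.35, 152.63, 107.63 and 49.86, a ratio of 16.4. Uqcr11 gave the lowest signal of the complex, 132.37 at percentile 63.0.

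Complex V, the ATP synthase, had 17 of 17 genes above the floor and 16 above the upper mark. Of all genes, 71.3% passed the floor and 14.8% the upper mark. The median signal of complex V was 1548 at percentile 96. In the catalytic F1 head and its central stalk, Atp5d (delta) read 2604.05 and Atp5a1 (alpha) 1954.1. Atp5b (beta, which carries the catalytic sites) read 1893.89, Atp5c1 (gamma) 1686.51 and Atp5e (epsilon) 854.84. All 5 lay at or above percentile 92.6. Atp5a1 and Atp5c1 each also had a probe set far lower, at 233.11 and 216.06.

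In the peripheral stalk, which keeps the head from turning, Atp5pb read 2407.99 and 1712.1 on its 2 probe sets, and Atp5h 2338.97 and 1841.37. Atp5o (the oligomycin sensitivity protein) read 691.45 and 134.6, and Atp5j 673.34. The small membrane subunits ran from 806.14 for Atp5md to 2657.63 for Atp5l, the highest signal of the complex, with Atp5mpl at 1548.02, Atp5j2 at 1187.14 and Atp5k at 900.52. All 9 genes of the stalk and of this group thus lay above the upper mark.

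The c ring, which rotates as protons pass, is built from a single mature protein encoded by 3 genes that differ in their import sequences. Atp5g3 read 2085.82 on its only probe set. Atp5g2 read 804.84, 106.27 and 60.54 on 3 probe sets. Atp5g1 read 148.84 and 25.69 and was the only gene of complex V below the upper mark. The ratio of brightest to dimmest within Atp5g2 was 13.3.

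Complex IV, cytochrome c oxidase, contains subunits that exist as ubiquitous and tissue-restricted isoforms, and 22 of its 25 genes lay at or above the floor. The 10 ubiquitous genes had a median signal of 2335 and 9 passed the upper mark. The 7 tissue-restricted genes had a median signal of 86.15, 4 (57.1%) lay at or above the floor and 0 passed the upper mark. Of all genes, 71.3% lay at or above the floor and 14.8% passed the upper mark. A group of 7 is too small for these counts to set the restricted isoforms apart from all genes. Of the ubiquitous subunits, Cox6a1 read 3750.8 and 1702.82, and Cox4i1, which carries the regulatory ATP site, 2604.46. Cox7a2l, a factor that joins complexes III and IV into supercomplexes, read 2820.0, 2753.03 and 2048.84. Cox5a read between 1457.97 and 2487.95 on 3 probe sets. All of these lay above the upper mark.

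Cox8a read 3271.07 and 3089.82 on 2 of its probe sets and 93.63 on another, a ratio of 34.9 within the gene. Cox7a2 read 1851.64 and 1471.96, Cox6b1 1634.28 and 1603.75, and Cox6c 1180.33 and 706.55. Cox7c was the exception among the ubiquitous genes, at 210.8 and 75.84. Cox5b had 6 probe sets, of which 4 read between 1276.67 and 2182.52 and the others 68.9 and 27.63, the widest ratio of the 102 genes at 79.0. Cox7b was not analysed here.

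The tissue-restricted isoforms divided into a group near the floor and a group well above it. Near the floor lay Cox7a1 (a heart and muscle isoform) at 52.21, Cox8b (also of heart and muscle) at 57.23, Cox7b2 (testis) at 66.3 and Cox6b2 (testis) at 86.15. Above it lay Cox4i2, the lung isoform, at 258.85, Cox6a2, the heart and muscle isoform, at 262.5 and 173.99, and Cox8c, the testis isoform, at 311.24 and 102.67. Hybridisation of each probe set bears on these values, and no level of a restricted isoform was set against that of its partner. Markers of the same tissues were read beside them: among 5 muscle genes 2 lay above the floor, from 40.15 for Actn2 to 186.78 for Ckm. Among 4 testis genes 2 lay above it, with Ldhc at 545.45 and Tnp1 at 23.41. Of all genes, 71.3% lay at or above the floor. The summed signal was 432.65 for the 5 muscle genes and 761.52 for the 4 testis genes, and their part in the isoform signals was not tested.

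**Figure D3:**
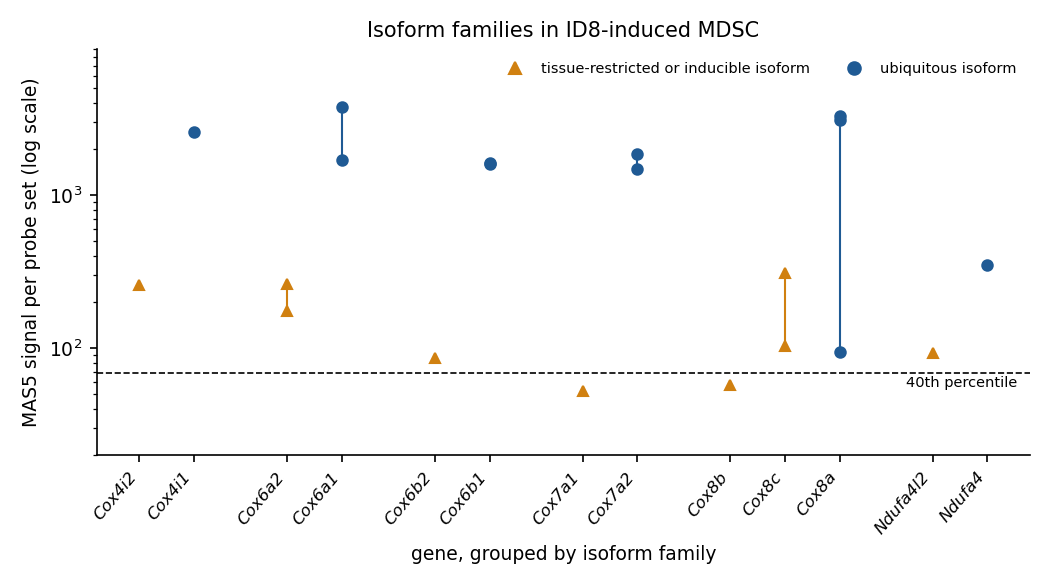
Signal of every probe set (MAS5 units, log axis) for isoform families in the ID8-induced MDSC array; triangles are tissue-restricted or inducible isoforms, circles ubiquitous ones, lines join the probe sets of 1 gene and the dashed line is the 40th percentile. Cox4i2, Cox6a2 and Cox8c stand above the line at 258.85, 262.5 and 311.24 on their brightest probe sets, and Cox7a1 and Cox8b below it at 52.21 and 57.23.

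The assembly factors of complex IV were all above the floor on their brightest probe sets, 8 of 8, and 2 passed the upper mark. Cox17, the copper chaperone that supplies the enzyme's metal centres, read 1584.51 on 1 probe set and 105.9 on the other. Cox19, another small protein of the copper pathway, read 627.35. Cox20, which escorts a mitochondrially encoded subunit during assembly, read 504.27 and 22.35. Cox15 and Cox10, the enzymes of haem A synthesis, read 276.75 and 159.48, with 42.54 and 21.89 on their dimmest probe sets. Cox11, Cox16 and Cox18 read 257.56, 236.3 and 135.86. Cox11 also read 66.38 on its other probe set, and Cox16 read 19.63 and 18.38 on its others. The dimmest probe sets of Cox10, Cox11, Cox15, Cox16 and Cox20 thus lay below the floor. Over all complexes, 15 of 20 assembly factors passed the floor and 4 passed the upper mark, shares of 75% and 20%, near the 71.3% and 14.8% of all genes.

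CpG content at the start sites was counted where a promoter window was given. The RefSeq promoter windows used here (build GRCm38.p6) span 250 bases before to 50 after the start, and 84 of the 102 genes had one; where several were listed, the first was taken. CpG dinucleotides, which are dense at promoters of broadly used genes, numbered 14 to 35 per window in 8 ubiquitous complex IV subunits, with a median of 19.5, and 2 to 10 in the 4 tissue-restricted isoforms with a window, with a median of 8.5. These counts did not overlap, and no test was made. The 4 windows were those of Cox6b2, Cox7a1, Cox7b2 and Cox8b, the isoforms near the floor. Cox4i2, Cox6a2 and Cox8c, which lay well above it, had no window, so the counts do not cover them. Low counts were not particular to the restricted isoforms, since the windows of Ndufc2 and Ndufa3 held 8 and 11. Over the 84 genes the median was 20.5, and it was 13 over 17491 protein-coding genes. At most 10 CpG, a limit chosen after the values were seen, occurred in 5 of the 84 windows (5.95%) and in 44.8% of the 17491. The 200 bases before the start of Cox8a (19 CpG in its window) and of its muscle paralogue Cox8b (2 in its window) are shown as examples from either isoform group, with each CpG in capitals.
Cox8a, chr19:7217617-7217816, minus strand: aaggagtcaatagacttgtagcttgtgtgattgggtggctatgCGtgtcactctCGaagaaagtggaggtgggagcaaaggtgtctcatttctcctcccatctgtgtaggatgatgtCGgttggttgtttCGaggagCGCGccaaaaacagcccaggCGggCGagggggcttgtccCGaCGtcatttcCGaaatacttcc
Cox8b, chr7:140900447-140900646, minus strand: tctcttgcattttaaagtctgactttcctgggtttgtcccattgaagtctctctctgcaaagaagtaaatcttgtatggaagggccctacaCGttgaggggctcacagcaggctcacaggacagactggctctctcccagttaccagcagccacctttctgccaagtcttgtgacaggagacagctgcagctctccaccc

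Motifs of 2 factors that textbooks connect with respiratory chain promoters were searched on both strands of the same windows. The core of the NRF1 motif was taken as GCATGCG and that of the GABP motif as CCGGAAG. The NRF1 letters occurred in 11 of the 84 windows (13.1%) and in 4.48% of all protein-coding windows. The GABP letters occurred in 25 (29.8%) and in 11.9%, and 5 of the 84 windows held both. The motifs were chosen with the member genes known, and the shares are a description. Both motifs contain a CpG and the windows of the members are rich in CpG, whose part in the shares was not tested.

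The 11 genes with NRF1 letters were Atp5g2, Atp5k, Atp5l, Cox6a1, Ndufa6, Ndufa8, Ndufaf4, Ndufaf5, Sdhb, Uqcr11 and Uqcrc1. Their signals ran from 44.26 for Ndufaf4, below the floor, to 3750.8 for Cox6a1, so that genes below the floor and above the upper mark held these letters. The 200 bases before the start of 4 of them, 1 with its signal below the floor, are shown with the motif in capitals; the matches on the plus and minus strand overlap there and are capitalised as 1 run.
Atp5g2, chr15:102671048-102671247, minus strand: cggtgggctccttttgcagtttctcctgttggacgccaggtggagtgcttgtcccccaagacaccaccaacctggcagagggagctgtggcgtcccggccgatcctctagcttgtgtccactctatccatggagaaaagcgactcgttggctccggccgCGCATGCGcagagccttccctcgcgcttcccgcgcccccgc
Atp5k, chr5:108434400-108434599, minus strand: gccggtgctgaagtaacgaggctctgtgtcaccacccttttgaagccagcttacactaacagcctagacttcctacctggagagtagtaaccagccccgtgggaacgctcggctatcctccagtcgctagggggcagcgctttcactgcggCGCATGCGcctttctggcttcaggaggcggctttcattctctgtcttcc
Cox6a1, chr5:115348959-115349158, minus strand: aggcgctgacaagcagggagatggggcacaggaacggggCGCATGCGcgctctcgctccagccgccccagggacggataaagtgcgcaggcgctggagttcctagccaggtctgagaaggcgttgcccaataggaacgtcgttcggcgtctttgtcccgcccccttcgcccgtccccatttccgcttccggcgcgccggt
Ndufaf4, chr4:24897883-24898082, plus strand: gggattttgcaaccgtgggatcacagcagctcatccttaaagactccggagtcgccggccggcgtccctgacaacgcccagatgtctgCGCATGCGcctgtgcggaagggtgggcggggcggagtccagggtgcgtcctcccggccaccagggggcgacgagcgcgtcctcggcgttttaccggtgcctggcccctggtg

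The genes for the factors themselves were read on the same array. Of 13 regulators of mitochondrial gene expression, 11 lay at or above the floor and 2 above the upper mark, where 71.3% and 14.8% of all genes did. Yy1 read 1820.1, with 92.69 on its dimmest probe set, Nrf1 634.96, with 162.93, and Esrra, a nuclear receptor that drives respiratory genes, 515.37, with 451.57. Gabpa, the DNA-binding part of GABP, read 352.91 and was picked out for its motif after the values were seen. The co-activators Ppargc1a and Ppargc1b, known as inducers of mitochondrial biogenesis, were the 2 below the floor, at 53.78 and 35.92. Other electron carriers and entry points to the chain passed the floor in 8 of 8 cases and the upper mark in 5, against the same shares of all genes. They were led by Sqor (sulfide oxidation) at 3143.78, Cycs (cytochrome c) at 1338.36 and Cyc1 (cytochrome c1) at 832.98. The dimmest probe sets of Sqor and Cycs read 54.15 and 24.76.

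Assembly factors with other name prefixes were read as well. Of 22 measured genes, 20 lay at or above the floor and 2 above the upper mark, with a median percentile of 61.6. Of all genes, 71.3% lay at or above the floor and 14.8% passed the upper mark, and their median percentile was 61.4. Atpaf2, which chaperones the F1 head, read 1078.59, Pet100 read 705.93, with 34.32 on its other probe set, and Surf1 602.19. The 2 below the floor were Uqcc1 at 58.28 and Lyrm7 at 27.5.

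Probe sets of 1 gene offer the only check within the array, and 59 of the 102 genes had more than 1. Brightest over dimmest probe set gave a median ratio of 2.4 for these genes and 3.01 for the 9010 genes of the array with several probe sets. A ratio of at least 10 occurred in 12 of the 59 (20.3%) and in 14.6% of the 9010. Probe sets on both sides of the floor occurred in 13 of the 59 (22%) and in 43.7% of the 9010. Over single probe sets, 175 of 203 (86.2%) lay at or above the floor and 85 (41.9%) above the upper mark, where 63.5% and 11.3% of all named probe sets did. The brightest probe set therefore raises the levels given above, though the respiratory chain genes stood high on single probe sets too.

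The kind of probe set moved with the signal. Suffix letters mark probe sets that may match several transcripts of a gene (a), several genes (s) or contain probes that do so (x). Such probe sets made up a larger part of the members, of which 53.7% had no letter, than of all named probe sets, of which 77.2% had none. Among members, the median signal was 266.5 for the 109 probe sets with no letter, 761.1 for 42 with the letter a, 1021 for 20 with s and 519.9 for 32 with x. Over all named probe sets these medians were 90.53, 169.4, 161.7 and 128.2. The brightest lettered probe set exceeded the brightest one without a letter in 26 of the 45 members that had both kinds (57.8%), and in 2005 of 4011 such genes of the array (50%). RefSeq names a pseudogene for 10 of the 102 genes, among them Atp5k, Cox5b, Ndufab1 and Uqcrh, and signal from such copies cannot be told apart from that of the gene.

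**Figure D4:**
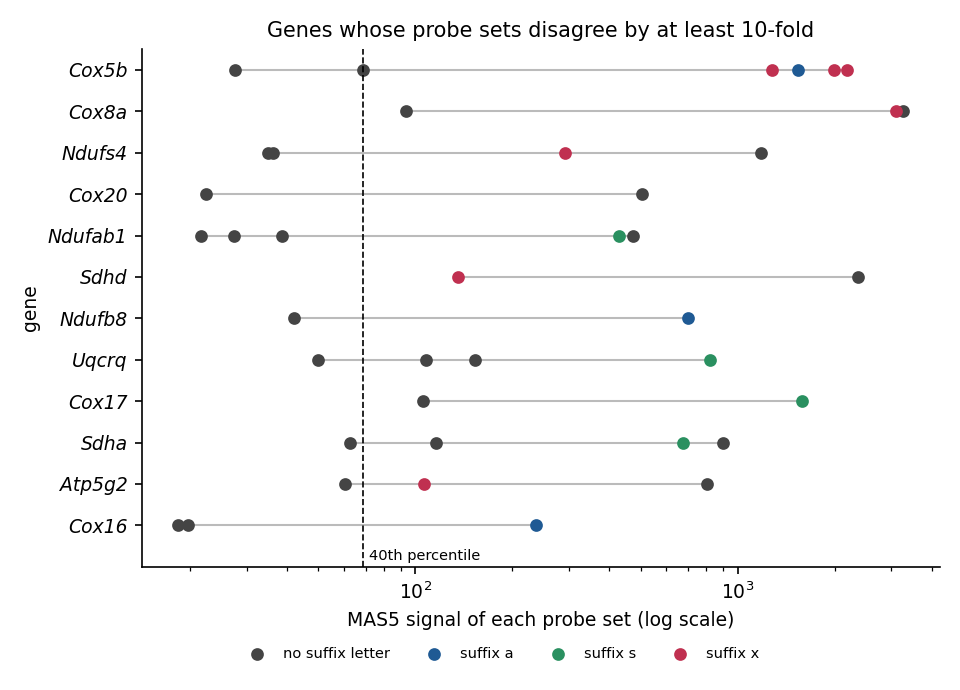
Signals of all probe sets (MAS5 units, log axis) of the 12 genes whose brightest and dimmest probe sets differ at least 10-fold in the ID8-induced MDSC array; each point is a probe set, coloured by suffix letter, grey lines join the probe sets of 1 gene and the dashed line is the 40th percentile. Cox5b has the widest range, 27.63 to 2182.52, with both of its low probe sets free of a suffix letter.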

How the data were processed

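Biotinylated cRNA from 6 ug of total RNA was hybridised to 1 Affymetrix array for ID8-induced MDSC and 1 for control marrow cells, per the labels' protocols. The deposited values are MAS5 signal intensities on a linear scale, per the submitters' processing notes (version and scaling target: not given in the sources used here). Precision is limited by the number of arrays. The control column was checked for order and not used.

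Of 45037 probe sets, 34945 carried 1 symbol in GEO's platform annotation, 932 several and 9160 none; only the first kind was used. All 102 members' Entrez IDs were found in the GRCm38.p6 RefSeq table. Signals were used as deposited, a gene taking its brightest probe set, with a floor at the 40th percentile. Counts and percentiles were checked on simulated data. Members and lists were chosen with earlier results of these data known. Named were the 4 highest subunits per complex, genes below the floor, isoform pairs, the 4 highest assembly factors, succinate dehydrogenase and the 10 widest probe set ratios; further members complete their role groups. For the other lists, the 3 highest and up to 4 below the floor were named, and for cell markers the extremes or defining genes. Alternatives were other floors, the mean over probe sets, the dimmest probe set and unlettered probe sets. CpG and motif counts were chosen after the values were seen. Python 3.11.15, numpy 2.4.6 and pandas 2.3.3 were used.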

Additional observations from a re-analysis of the deposited data

Results flagged for a closer look

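Probe sets shared by a respiratory chain gene and another symbol were left out of the counts above, and 10 of these 11 read at or above the floor, where 63.5% of all probe sets with 1 symbol did. The highest, shared by Cox14 (a complex IV assembly factor) and Gm29733, read 1420.02. Those shared by Ndufs6 and Ndufs6b read 278.31, and those shared by Ndufa11 and Ndufa11b 275.88 and 179.72. The 1 below the floor, shared by Ndufa13 and Yjefn3, read 53.46. Which of the named genes gave each signal was not tested.

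The bone marrow cell control column was measured but gives no level used above, and its highest signal was 26083.92. Its values stand in 2 interleaved descending sequences and give no level for any respiratory chain gene.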

How the results depend on the processing

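The count of 93 respiratory chain genes at or above the floor stayed within 1.5 times under each alternative run. It could not exceed 102, so a rise beyond that limit was not possible. It was 101 with the floor at the 20th percentile (99% of the 102, against 87.5% of all genes), 88 at the 60th (86.3%, against 51.6%), 91 with the mean log2 signal over probe sets (89.2%, against 62.4%) and 80 with the dimmest probe set (78.4%, against 49.7%). With unlettered probe sets, which leave 83 genes, it was 72 (86.7%, against 68.0%), and 78 of 82 without assembly factors, an alternative chosen after seeing the data. The counts by complex stayed within the same limit. The median percentile of 91.0 was 80.3 with the dimmest probe set (39.7 over all genes), lower by construction, and stayed within 5 points of 91.0 otherwise. A change of more than 1.5 times was seen in 17 of 50 named signals when probe sets were averaged, and in 6 of 41 when only unlettered ones were kept. No paired analysis was possible because each group had 1 array and the control column was not tied to probe sets.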

Other observations

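Mitochondrial genes next to the respiratory chain were bright as well in ID8-induced MDSC. All 13 measured genes of the tricarboxylic acid cycle, which supplies NADH and succinate, lay at or above the floor and 7 at or above the 90th percentile, where 71.3% and 14.8% of all genes did. Mdh2 (malate dehydrogenase) read 2464.01, with 2401.99 on its other probe set. Dld, a subunit shared by several dehydrogenase complexes, read 817.27, with 24.22 on its other probe set, and Dlst 811.03, with 100.5 on its dimmest. Among 10 membrane carriers and channels, 8 passed the floor and 5 reached the 90th percentile, led by the outer membrane channels Vdac2 at 3141.63 and Vdac1 at 2821.69 and the phosphate carrier Slc25a3 at 2518.9. The dimmest probe sets of Vdac1 and Slc25a3 read 43.83 and 241.73. The 2 below the floor are known from other tissues, Ucp1 of brown fat at 41.34 and Slc25a31 of testis at 13.24. Ucp3, of the same list and family as Ucp1, lay above the floor at 166.78, with 47.01 on its other probe set.

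Markers of epithelial, lymphoid and erythroid cells had 0 genes at the 90th percentile, where 14.8% of all genes lay at or above it. The floor was passed by 71.3% of all genes. With so few markers, these counts do not show that such cells were absent. Epithelial and mesothelial markers, 6 measured, ran from 46.03 for Krt19 to 158.91 for Epcam, with 4 above the floor. T cell markers, 3 measured, ran from 62.28 for Cd3g to 134.58 for Cd3e, with 2 above the floor. The 2 measured B cell markers read 140.9 (Ms4a1) and 135.93 (Cd79a). The 2 measured erythroid markers, Klf1 at 55.94 and Hba-a1 at 51.32, lay below the floor.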
